A study of Homo sapiens with 6 samples.

Results

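Giant genes are protein-coding genes whose body spans 1 Mb or more of the genome. Of the 20020 protein-coding genes of Gencode release 44 on GRCh38, 71 met this length, together 99.3 Mb on 20 chromosomes, with 34 of them on the minus strand. They ran from ADAMTSL1 at 1004 kb to RBFOX1 at 2474 kb, with a median of 1285 kb. The rule for membership uses annotated length alone and no measured value. The measured values came from poly(A) 3′-seq, which reads RNA from the junction with its poly(A) tail, in IMR-32 cells, an established line from a childhood neuroblastoma. The 6 libraries comprised 2 of cells given the solvent DMSO, 2 of cells given 400 nM THZ531 for 2 h and 2 given it for 6 h. The labels of the DMSO libraries give no time. This compound binds covalently to CDK12 and CDK13, kinases that act on elongating RNA polymerase II. The authors called peaks once on the merged reads, so each peak below is a candidate RNA 3′ end in the pooled material. It has no treatment, replicate error or strand of its own, so a comparison of treated and control cells could not be made from it.

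Most RNA polymerase II transcripts end where a polyadenylation signal, classically AATAAA, is read in the new RNA, which is then cut and given a poly(A) tail. Long introns hold many such sequences by their length, and full-length transcription of a giant gene takes hours, so these genes depend on polymerase passing cryptic signals on its way. CDK12 is known to help polymerase do so. Giant genes are rich in neuronal adhesion proteins, synaptic scaffolds and channels, and several lie at common fragile sites.

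Of the 200023 peaks in the list, 4740 had their summit in a giant gene or up to 4 kb past its 3′ end, and 2655 of these had −log10 q of at least 5, the cutoff used below. These were 1.92% of the 138277 peaks past that cutoff on the chromosomes. A peak was called a transcript-end peak when its summit fell in a window around an annotated 3′ end of the gene, reaching 200 bp before that end and 600 bp past it. It was called intronic when it lay in the body outside those windows, outside all annotated exons of the gene and outside other annotated genes. Height is given as reads at the summit, the number of extended reads there in the merged libraries. In brackets after shares and rates stand 95% Wilson and exact Poisson intervals, which cover counting error only. As a check of the cell type, all 13 sympathetic neuroblast markers examined had a transcript-end peak of at least 19 reads. Of the markers of other cells, 1 of 4 epithelial genes had an end peak (EPCAM, 7 reads), 1 of 3 fibroblast genes (COL1A1, 15 reads) and none of 3 blood genes.

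The tallest transcript-end peaks that held a polyadenylation hexamer are shown first, as examples of the signal. That of AUTS2 was also followed by genomic A-rich sequence, the class described further on, and the other 4 were not. Each run below is 30 bases on the gene's strand with the hexamer in capitals. The cleavage site is expected near the 3′ edge of a peak, which lay 61 bases after the hexamer in AUTS2, 37 in LSAMP, 30 in CADM2 and CNTNAP2, and 27 in RBMS3.
AUTS2, chr7:70792414-70792443, plus strand, 52 reads: tatgaAATAAAattagttccatttggtctt
LSAMP, chr3:115802378-115802407, minus strand, 39 reads: aatgaAATAAAcgtgaaaaggagatgtgtc
CADM2, chr3:84960374-84960403, plus strand, 38 reads: gaataAATAAAccaagaatttaagaaaggg
RBMS3, chr3:28758818-28758847, plus strand, 36 reads: ttgttAATAAAgaattgaatgaatttctaa
CNTNAP2, chr7:148415840-148415869, plus strand, 35 reads: aaaatAATACAaaaaatgcttttagagttt

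Intronic peaks could carry the same hexamer. The next runs are 45 bases from the tallest intronic peak of each of 6 giants that carried AATAAA, lacked A-rich sequence after it and had no exact copy elsewhere in the genome. The hexamer, in capitals, lay between 15 bases (AUTS2) and 93 bases (TBC1D5) before the 3′ edge.
ADAMTSL1, chr9:18579503-18579547, plus strand, 29 reads: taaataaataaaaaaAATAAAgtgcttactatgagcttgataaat
RBMS3, chr3:29645432-29645476, plus strand, 26 reads: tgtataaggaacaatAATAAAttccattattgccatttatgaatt
AUTS2, chr7:70695796-70695840, plus strand, 36 reads: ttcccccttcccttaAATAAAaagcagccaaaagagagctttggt
TBC1D5, chr3:18425613-18425657, minus strand, 34 reads: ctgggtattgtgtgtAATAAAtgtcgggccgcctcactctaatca
GPC6, chr13:93346619-93346663, plus strand, 17 reads: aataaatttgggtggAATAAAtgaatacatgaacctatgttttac
RBFOX1, chr16:5251826-5251870, plus strand, 28 reads: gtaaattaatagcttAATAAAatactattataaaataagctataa

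A different class of intronic peak ended at a genomic run of A. An oligo(dT) primer can anneal to such a run inside a transcript, without any poly(A) tail. The runs below are 50 bases from the tallest peak of this class in 3 giants, and the capitals mark the 25 bases with the most A after the 3′ edge, which held 18 A in RBFOX1 and 20 A in RBMS3 and LSAMP.
RBFOX1, chr16:6377274-6377323, plus strand, 21 reads: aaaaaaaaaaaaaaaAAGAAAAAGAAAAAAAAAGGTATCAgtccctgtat
RBMS3, chr3:29308783-29308832, plus strand, 39 reads: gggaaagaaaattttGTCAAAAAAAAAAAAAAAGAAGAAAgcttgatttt
LSAMP, chr3:116331792-116331841, minus strand, 26 reads: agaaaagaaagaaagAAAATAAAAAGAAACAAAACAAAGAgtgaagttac

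The first question was which giants were transcribed to an annotated end in these cells. Of the 71, 42 had at least 1 transcript-end peak, which is 59.2% (47.5 to 69.8). Over all protein-coding genes the share was 64.0%, which the interval of the giants includes. By length, the share was 44.95% of genes under 10 kb, 69.4% from 10 to 100 kb, 75.4% (73.8 to 76.96) from 100 to 300 kb and 72.3% (69.0 to 75.4) from 300 kb to 1 Mb. The interval of the giants lay below that of genes from 100 to 300 kb and overlapped that of the class next to them. At least 1 intronic peak was found in 67 of the 71, whereas the share over all protein-coding genes with intronic sequence was 61.2%, and giants have far more intron in which a peak can fall. In bulk libraries, fewer cells with a transcript and less RNA per cell cannot be told apart, and a gene without a peak may be transcribed below the reach of the pooled reads.

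Transcript-end peaks of the giants were low. The 42 genes had 115 of them, from 1 in each of 16 genes to 10 in AUTS2, with a median of 13 reads and a range of 7 to 52. The tallest end peak of a giant had a median of 15.5 reads, against 28 in genes under 10 kb, 25, 23 and 19 in the successive longer classes. It lay in the last 10% of the gene or past it in 32 giants. In the other 10 it lay at an annotated end further upstream. CADM2, a synaptic adhesion molecule, had its only end peak 1.3 kb from the 5′ end, and SPAG16, a protein of the sperm axoneme, had its tallest 33.5 kb from there. Neither had a peak at the end of the canonical transcript, so a peak at an annotated end does not by itself show that the full length was transcribed. The canonical transcript ended at a peak in 26 of the 42 giants, or 61.9%, and in 82.9%, 80.4% and 77.5% of genes with an end peak from 10 to 100 kb, 100 to 300 kb and 300 kb to 1 Mb. A peak at the most distal annotated end was found in 25 giants. In 5 giants (DAB1, PRKG1, TENM2, KCNIP4 and DCC) every end peak also lay inside another annotated gene. Since peaks carry no strand, those reads cannot be assigned to the giant alone.

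AUTS2, a regulator of neuronal gene expression, had the tallest end peak at 52 reads, 1194 kb from its 5′ end (chr7:70792322-70792485) and before A-rich sequence. LSAMP, a limbic adhesion protein of the IgLON family, followed with 39 reads at its distal end, and CADM2 with the 38 reads described above. RBMS3, an RNA-binding protein, had 36 reads at an annotated end 184 kb from the 5′ end. CNTNAP2, a neurexin-like protein of axons, had 35 reads 2300 kb from its 5′ end, and SPAG16 also had 35. CTNNA2, the neuronal alpha-catenin, reached 28 reads at its distal end, and ZFHX3, a homeobox transcription factor, reached 27 at its distal end. RBFOX1, a neuronal splicing factor and the longest giant, reached 17, at an annotated end 360.6 kb from its 5′ end. It also had peaks at its canonical and most distal ends.

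Intronic peaks made up 1939 of the 2253 peaks of the 42 giants with an end peak, or 86.1% (84.6 to 87.4). The rest were 115 end peaks, 47 in other exons, 148 in other genes inside the giant and 4 past the end. The pooled rate was 35.6 intronic peaks per Mb of intron (34.1 to 37.3). Genes differed widely, from 1.51 per Mb in CSMD1 to 127 in RBMS3, with a median of 27.3. The 29 giants without an end peak had 355 intronic peaks, or 10.1 per Mb (9.06 to 11.2), with a gene median of 3.602. Of those 355, 176 were in GPC6 alone. Without it, the rate fell to 5.25 per Mb (4.51 to 6.08), and to 4.68 (3.97 to 5.48) when a pair of gene models without a symbol, which share exons with RBMS3 and with PRRG1 and TSPAN7, was also left out. Sequence at least 10 kb from any gene had 3.96 peaks per Mb (3.83 to 4.10). The last interval overlaps the one just before it and ends below that without GPC6, and the interval of the giants with an end peak lies far above all of them. The end peaks that define the groups and the intronic peaks come from the same merged reads. Both rise with the reads a gene has, so part of this difference is built into the grouping.

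**Figure D1:**
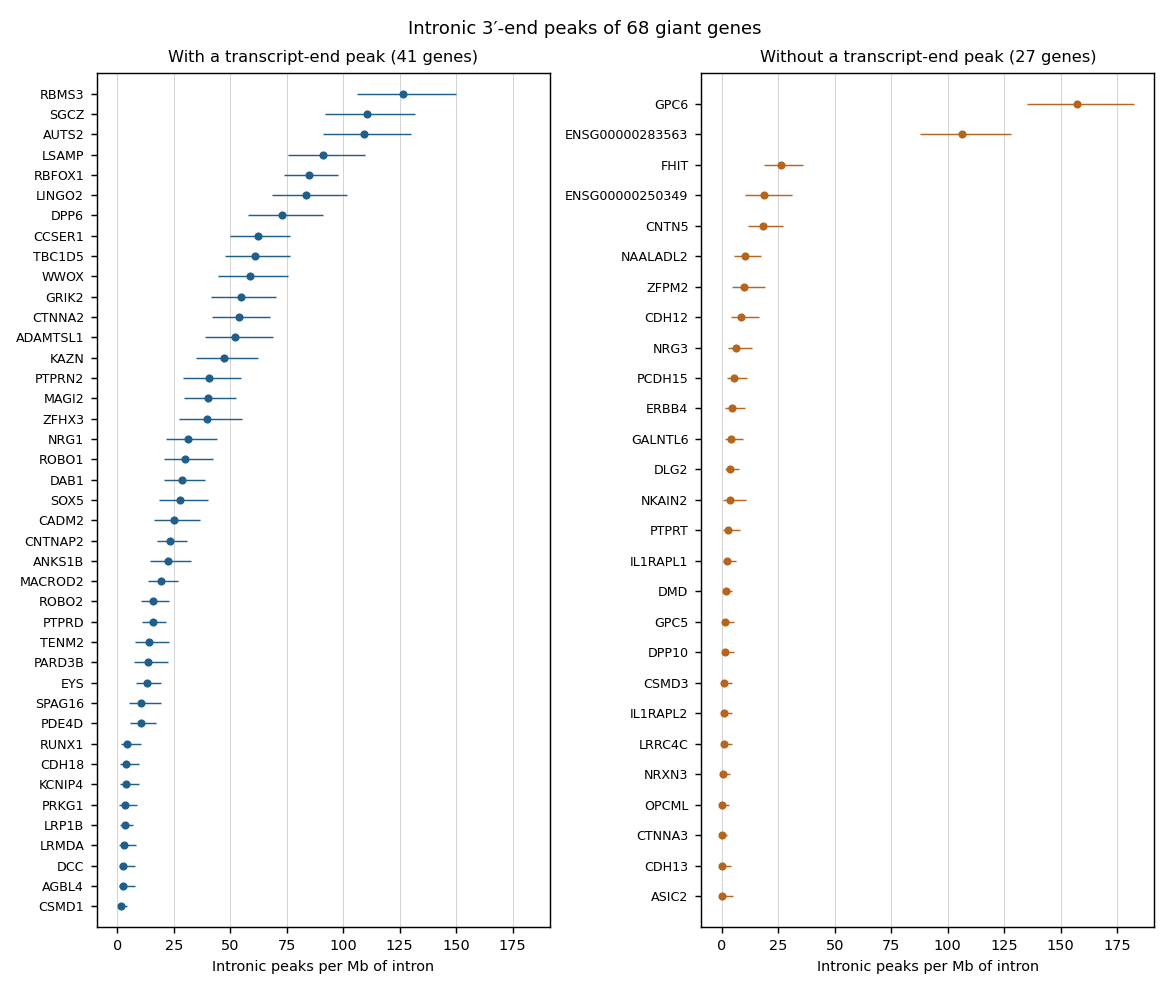
Intronic peaks per Mb of intron (x axis) in each of 68 giant genes, with 41 that had a transcript-end peak on the left and 27 that had none on the right. Points are rates and lines exact Poisson 95% intervals. Genes on the left spread from 1.51 to 127 per Mb, while most on the right lie under 10, with 7 above it, led by GPC6 at 157, ENSG00000283563, which shares exons with RBMS3, at 106.5 and FHIT at 26.2.

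Over all 71 giants 59.2% had an end peak, and the lists by protein role below, of 6 to 22 giants, are too short for a contrast with that share. Among the RNA-binding proteins and transcription regulators, 6 of 7 giants had an end peak. Their intronic peaks numbered 201 in RBFOX1, 134 in RBMS3, 127 in AUTS2, 34 in ZFHX3, 27 in SOX5 and 5 in RUNX1, and ZFPM2, without an end peak, had 9. The gene median of this list was 39.5 per Mb, against 12.99 over all 71 giants. RBFOX1, RBMS3 and AUTS2 had 84.9 (73.6 to 97.5), 127 (106 to 150) and 109 (91.0 to 130) intronic peaks per Mb. The interval of RBMS3 lay above that of RBFOX1, and that of AUTS2 overlapped both.

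Neuronal adhesion proteins and other membrane proteins formed the largest list, with an end peak in 12 of 22 and a gene median of 11.3 per Mb. Intronic peaks numbered 116 in LSAMP, 103 in LINGO2, 53 in CNTNAP2, 41 in PTPRN2, 35 in PTPRD, 33 in ROBO1, 27 in ROBO2, 26 in CADM2, 15 in TENM2, 4 in CDH18 and 3 in DCC. ROBO1 and ROBO2 are receptors of axon guidance. The 10 without an end peak ran from 24 in CNTN5 through 9 in CDH12, 7 in PCDH15, 3 each in IL1RAPL1 and PTPRT, and 1 each in NRXN3, LRRC4C and IL1RAPL2, to 0 in CDH13 and OPCML. Family members could differ within this cell line: LSAMP and OPCML, both IgLON proteins, had 126 and 0 peaks of any kind.

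Scaffold and cytoskeletal proteins had an end peak in 7 of 10 giants, with a median of 17.8 intronic peaks per Mb. SGCZ, a sarcoglycan of the dystrophin-associated complex, had 126 intronic peaks, or 111 per Mb (92.1 to 132), beside a single end peak of 14 reads. CTNNA2 had 72, MAGI2 50, DAB1 43, ANKS1B 26, PARD3B 14 and SPAG16 10. DLG2 had 7 and DMD 4, and CTNNA3, the alpha-catenin of heart muscle, had none. Enzymes and other intracellular proteins had an end peak in 7 of 11, with a median of 19.4 per Mb. Intronic peaks numbered 90 in CCSER1, 72 in TBC1D5, a regulator of endosomal recycling, 59 in WWOX, an oxidoreductase, 49 in KAZN, 35 in MACROD2 and 3 each in AGBL4 and LRMDA. The 4 without an end peak were FHIT with 39, NAALADL2 with 13, GALNTL6 with 5 and NKAIN2 with 3.

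Of 6 channel proteins and receptors, 3 had an end peak. DPP6, an auxiliary subunit of potassium channels, had 78 intronic peaks, GRIK2, a kainate receptor subunit, 59, and KCNIP4 4, whereas DPP10 had 2 and ASIC2 0. DPP6 and DPP10 are related subunits, and had 73.1 (57.8 to 91.2) and 1.52 (0.183 to 5.47) intronic peaks per Mb. Of 6 signalling proteins, NRG1 had 33, PDE4D 15 and PRKG1 4, each with an end peak, and NRG3 had 7 and ERBB4 5 without. Matrix, proteoglycan and very large surface proteins had an end peak in 4 of 7, with 49 intronic peaks in ADAMTSL1, 24 in EYS, 6 in LRP1B and 3 in CSMD1. The others were GPC6 with 176, GPC5 with 2 and CSMD3 with 1.

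GPC6 went against its place among giants without an end peak. It encodes glypican-6, a heparan sulfate proteoglycan of the cell surface, and spans 1181 kb on the plus strand (chr13:93226807-94408020). It had 157 intronic peaks per Mb (135 to 182), the highest rate of all 71 giants, spread so evenly that the longest stretch without one was 46.6 kb. Its last exon (chr13:94403015-94408020) held 3 peaks, of 23, 15 and 12 reads. The most distal of them ended 622 bp short of the only annotated transcript end, outside the window used. Its place among the giants without an end peak therefore rested on the width of the window, and such giants are not called silent here. GPC5, its neighbour in family and on the chromosome, had 2 intronic peaks in 1475 kb.

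The next giants without an end peak, in order of intronic peaks, differed in kind. ENSG00000283563, a gene model without a symbol, had 113 intronic peaks by its own annotation, and those that also lay in RBMS3 were counted there in the pooled values. FHIT, a diadenosine hydrolase at a common fragile site, had 39, or 26.2 per Mb (18.7 to 35.9), none above 15 reads, and 22 of the 39 lay before A-rich sequence. CNTN5, an axonal adhesion protein, had 24, of which 13 lay in the first 10% and none beyond 668.5 kb of its 1338 kb.

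At the low end, CDH13, CTNNA3 and OPCML had no peak of any kind past the cutoff. With 943.2, 1613 and 1091 kb of intron examined, the exact Poisson intervals reach 3.91, 2.29 and 3.38 intronic peaks per Mb. The rate far from genes was 3.96 (3.83 to 4.10). These 3 genes were picked for having the fewest peaks of the 71, so their intervals are no test against that rate. CDH13 encodes T-cadherin and OPCML an IgLON protein. DMD, which encodes dystrophin and is best known from muscle, had 4 intronic peaks over 2242 kb, or 1.85 per Mb (0.505 to 4.75), of 29, 13, 9 and 8 reads. A single stretch of 1503 kb held none.

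The tallest intronic peak exceeded the tallest end peak in 28 of the 42 giants, or 66.7% (51.6 to 79.0), equalled it in 2 and fell below it in 12. The corresponding shares were 22.9%, 37.1% and 50.7% in genes from 10 to 100 kb, 100 to 300 kb and 300 kb to 1 Mb. Longer genes have more intronic peaks from which the tallest is taken. In TBC1D5 the heights were 42 and 20 reads and in LINGO2 34 and 15, whereas in AUTS2 they were 39 and 52 and in CNTNAP2 23 and 35.

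Several of the tallest intronic peaks had a summit whose surrounding bases were copied exactly in an exon of another gene. The authors kept reads with several placements, and the 50 bases around each summit were searched for on all chromosomes. The tallest intronic peak of the set, 56 reads in LSAMP (summit at 116644316 on chromosome 3), had 1 exact copy, in an exon of BZW1, whose peak there had 52 reads. The tallest in CDH12, with 52 reads, matched HSPD1, the mitochondrial chaperonin, with 62 reads at the copy. Those of CCSER1 (35 reads) and DMD (29 reads) matched TMSB4X, thymosin beta-4, with 39 reads, and TBCA, a tubulin cofactor, with 74. That of CADM2 (25 reads) matched RAB14 with 42. The middle 30 bases of each summit are given below on the strand of the copied mRNA, with its place in that gene. In LSAMP this is the strand of the giant, and in the other 4 it is the opposite strand.
LSAMP and BZW1, chr3:116644302-116644331 and chr2:200823744-200823773: cactagatttctacgtagtgatctgctttt
CDH12 and HSPD1, chr5:21884467-21884496 and chr2:197486861-197486890: aaatatataatggtttactgctgtcattgt
CCSER1 and TMSB4X, chr4:90838526-90838555 and chrX:12977164-12977193: aaatgattttaattattggaatgcacaatt
DMD and TBCA, chrX:33041825-33041854 and chr5:77691285-77691314: ttgtttttatctggttacatatatatttct
CADM2 and RAB14, chr3:85708320-85708349 and chr9:121179333-121179362: tcatttgatgtaacaaaatgctattaatct

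For CDH12, CCSER1 and DMD, the annotation has a pseudogene of the matched gene (HSPD1P1, TMSB4XP8 and TBCAP1) within 1 kb of the summit. In LSAMP, a second summit at 116645040, of 12 reads, also matched BZW1, and the pseudogene BZW1P2 lies within 1 kb of that summit. Reads that match both places equally cannot be assigned to the giant. Of 2294 intronic peaks, 153 had 1 to 20 exact copies, and 100 had more and were not searched for exons. Of the 153, 19 had a copy inside an exon of another protein-coding gene, and 11 of these had a peak at the copy. They included 5 of the 106 intronic peaks with 20 reads or more. Exact copies anywhere on the chromosomes were found for 10.1% (8.84 to 11.5) of intronic peaks in giants with an end peak, for 22.4% (16.9 to 28.99) in those without when GPC6 was left out, and for 3.48% of end peaks. Copies anywhere were no commoner in tall intronic peaks. They were found for 9.97% under 10 reads, 12.4% at 10 to 19 and 8.49% (4.53 to 15.4) at 20 or more. Copies inside exons were commoner in tall intronic peaks. They were found for 3 of 17 with 30 reads or more and 5 of 106 with 20 or more, against 19 of all 2294. With all intronic peaks that had a copy left out, the tallest intronic peak still exceeded the tallest end peak in 26 of 42 giants, and the rates were 32.0 and 8.46 per Mb in giants with and without an end peak. In CDH12, 7 of the 9 intronic peaks lay between 879.1 and 968.9 kb from its 5′ end, and all of these had a copy, which left 2 peaks and a tallest of 14 reads. DMD was left with 1 intronic peak, of 9 reads.

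**Figure D2:**
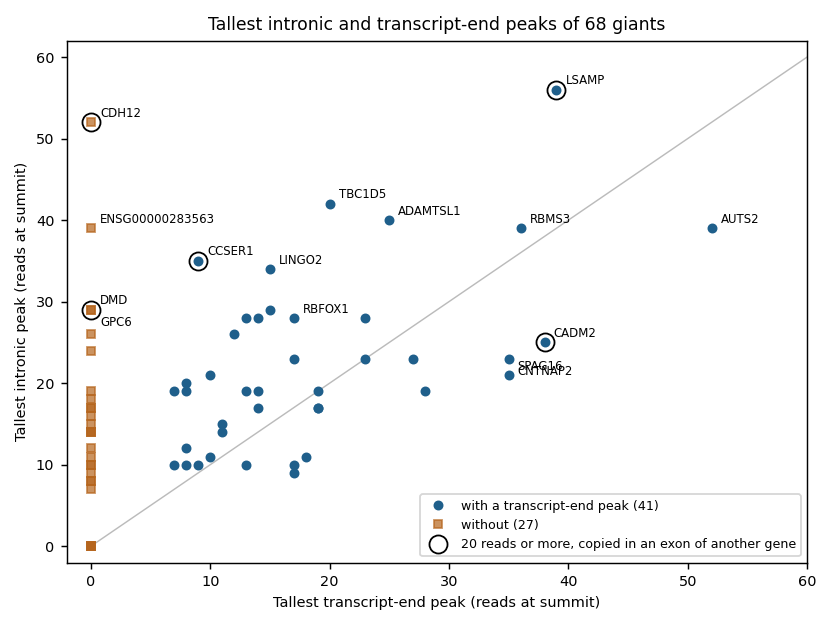
Reads at the summit of the tallest transcript-end peak (x axis) and the tallest intronic peak (y axis) of 68 giants. Blue points are 41 with an end peak and orange squares 27 without, placed at 0. The line marks equal heights, and 27 of 41 lie above it. Open circles mark the 5 giants with an intronic summit of 20 reads or more that has an exact copy in an exon of another protein-coding gene, LSAMP and CDH12 being the tallest.

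Intronic peaks were not spread evenly along the genes. In giants with an end peak, the first 10% of the gene held 14.7% (13.1 to 16.3) of the intronic peaks in 10.3% of the intronic bases, or 50.8 per Mb (45.1 to 57.1). The rate fell to 27.8 (23.5 to 32.7) in the fourth 10%, rose to 42.2 (37.0 to 48.0) in the seventh and was 29.2 (24.6 to 34.6) in the last. In giants without an end peak the first 10% held 23.1% (19.02 to 27.8), and 33.0% (26.5 to 40.1) without GPC6, when its rate was 16.3 per Mb (12.4 to 21.1) and no later 10% passed 8.21.

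Since many annotated bodies begin far before the reference transcript, positions were also taken along the canonical transcript, the reference transcript chosen by Ensembl. On this scale the rate in giants with an end peak was 65.5 per Mb (58.2 to 73.4) in the first 10%, 55.0 (48.4 to 62.3) in the second and 44.5 (38.5 to 51.2) in the third, and it was 22.1 (17.9 to 27.0) in the ninth and 25.6 (20.7 to 31.4) in the last. The decline was not steady, since the fifth 10% reached 45.03 (38.98 to 51.8). The first canonical intron held 34.6% (32.4 to 36.9) of the peaks in 21.0% of the bases. Within 10 kb of an annotated start lay 9.08% (7.88 to 10.4) of the peaks in 5.41% of the bases.

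**Figure D3:**
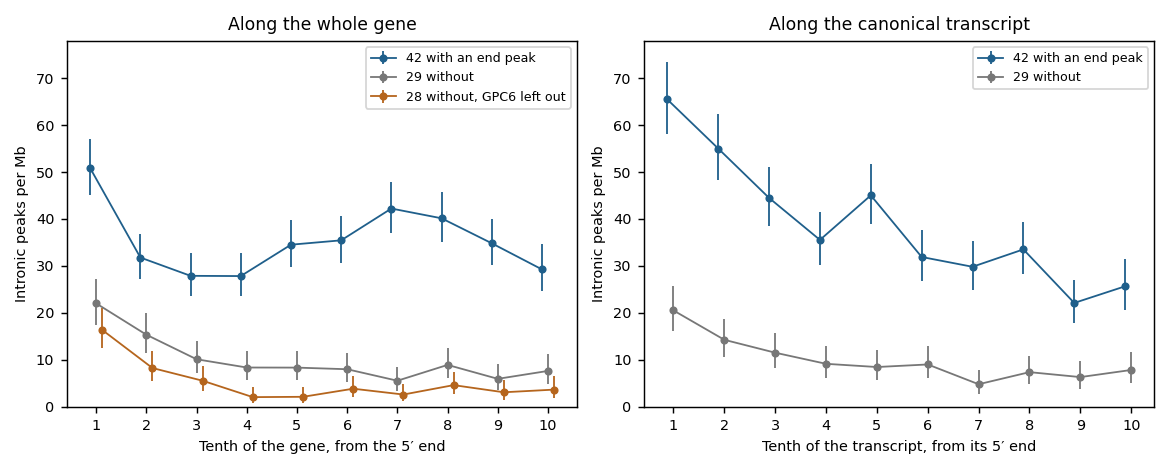
Intronic peaks per Mb (y axis) in each 10% of the gene (left) or of the canonical transcript (right), counted from the 5′ end, in giants with (blue) and without (grey) a transcript-end peak. In orange are the giants without one when GPC6 is left out. Points are pooled rates and bars exact Poisson 95% intervals. The first 10% has the highest rate in every series, 50.8 per Mb on the left and 65.5 on the right in giants with an end peak.

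Intronic peaks were also counted on either side of the canonical start of each gene. In 18 giants with an end peak, at least 100 kb of the gene lay before that start. The 100 kb before it held 42 intronic peaks over the 18 genes, or 27.5 per Mb (19.8 to 37.1), and the 100 kb after it held 152, or 89.7 per Mb (76.0 to 105). More peaks lay after the start in 13 genes, fewer in 2, and the numbers were equal in 3. RBMS3 had 0 before and 21 after, LSAMP 0 and 17, KAZN 1 and 17, GRIK2 0 and 13, TBC1D5 0 and 11, and CTNNA2 0 and 8. RBFOX1 had 11 and 9 and DPP6 13 and 10. PDE4D, RUNX1 and NRG1 had none on either side. Over all 42 genes, intronic sequence before the canonical start had 21.6 peaks per Mb (18.9 to 24.5), and that inside the canonical transcript 39.2 (37.4 to 41.1).

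Single genes departed from the pooled profile. More than 40% of the intronic peaks lay in the first 10% of EYS (15 of 24), SPAG16 (5 of 10), CNTNAP2 (26 of 53) and PTPRN2 (19 of 41). EYS, a protein of photoreceptors, had no peak at its canonical end, its only end peak lay 411.4 kb from the 5′ end, and the longest stretch without an intronic peak was 1021 kb. CNTNAP2 had a peak at its distal end of 35 reads but a stretch of 879.5 kb without an intronic peak, starting 846.6 kb from its 5′ end. In PTPRD, an adhesion phosphatase, 35 intronic peaks had a median position at 79.5% of the gene, and 14 of them lay within 100 kb from 1748 kb on. No intronic peak fell in the first 10% of 14 giants with an end peak, among them DPP6, CTNNA2 and GRIK2. The densest 100 kb was in RBFOX1 21 peaks, in AUTS2 23, in SGCZ 24, in GPC6 25, in TBC1D5 25 and in LSAMP 26. Stretches of 500 kb or more without an intronic peak occurred in 19 of the 42. Such stretches may span other annotated genes, whose peaks are not counted as intronic.

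**Figure D4:**
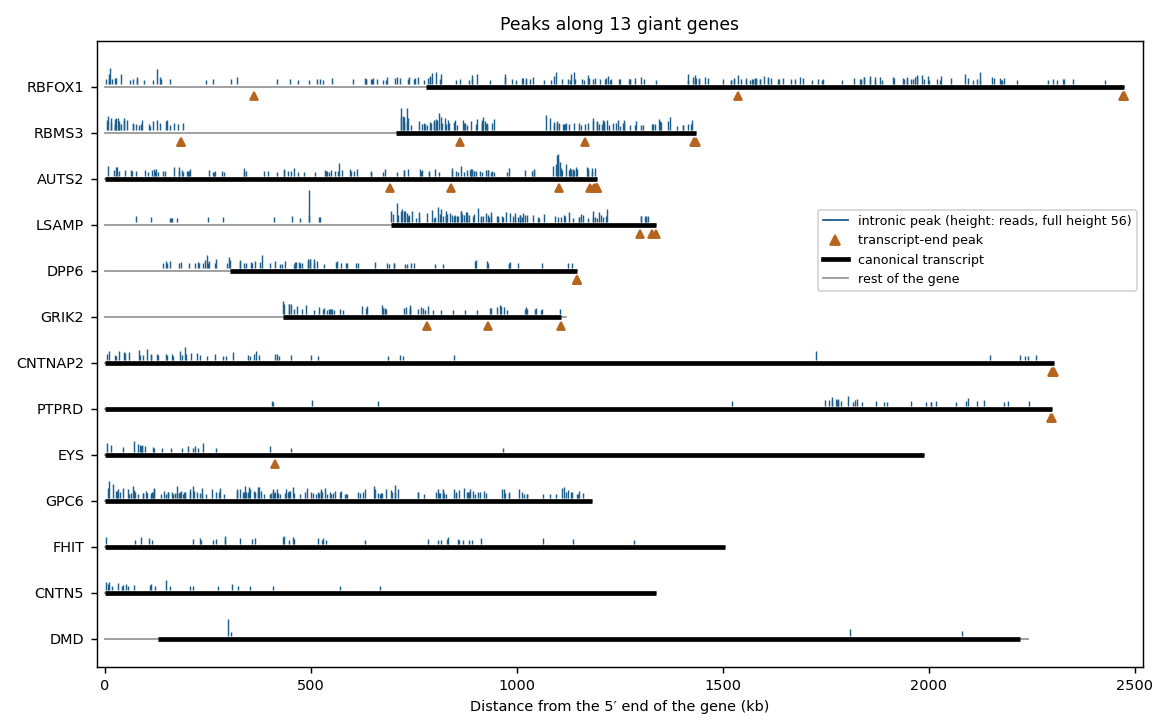
Peaks along 13 giant genes, by distance from the 5′ end of the gene (x axis, kb). Blue lines are intronic peaks, with height in proportion to reads at the summit (full height 56), orange triangles are transcript-end peaks, and the black bar is the canonical transcript within the gene (grey). In GRIK2 all intronic peaks lie after the canonical start, RBMS3 has none over a stretch of 528.4 kb that ends just past that start, CNTNAP2 and EYS are densest near the 5′ end, and GPC6 has peaks along the whole gene. Peaks in exons and inside other annotated genes are not drawn, and RBMS3 had 34 inside other genes.

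The sequence before the 3′ edge was examined next. Any of 12 polyadenylation hexamers, namely AAGAAA or AATAAA or AATACA or AATAGA or AATATA or AATGAA or ACTAAA or AGTAAA or ATTAAA or CATAAA or GATAAA or TATAAA, was searched for in the 100 bases that end at the edge, on the strand of the gene and, for comparison, on the opposite strand at the other edge. Matches of different hexamers may overlap. Of the 115 end peaks of the giants, 83.5% (75.6 to 89.2) had a hexamer on the gene's strand and 58.3% on the opposite strand. Of the 1939 intronic peaks, 58.0% (55.8 to 60.2) had one, and 33.1% (31.1 to 35.2) on the opposite strand. In giants without an end peak the shares were 54.4% (49.2 to 59.5) and 38.3% (33.4 to 43.5). Over all peaks of the list past the cutoff, 72.8% had a hexamer on at least 1 strand. That share counts either strand, so it cannot be set against the shares on 1 strand above.

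Single hexamers contributed unequally to the 1939 intronic peaks. AATAAA stood before 23.7% (21.9 to 25.7), against 7.84% (6.72 to 9.12) on the opposite strand. AAGAAA, which A-rich sequence itself can supply, stood before 18.2% (16.6 to 19.99), against 5.11%. AATGAA had 9.08% against 3.71% and ATTAAA 8.77% against 4.796%, while AATACA had 4.64% on one strand and 4.59% on the other.

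A-rich sequence was defined as at least 18 A in some 25 bases within the 50 bases after the 3′ edge. It followed 40.9% (38.7 to 43.1) of the intronic peaks of giants with an end peak on the gene's strand, and 1.65% (1.17 to 2.32) on the opposite strand. In giants without an end peak the shares were 33.2% (28.5 to 38.3) and 5.35% (3.45 to 8.21). Of the 115 end peaks, 11.3% had it. The study's own filter was stricter, equal to at least 22 A in 25 bases, and removed such peaks only where no hexamer was found. At least 22 A followed 8.05% (6.92 to 9.34) of the intronic peaks of giants with an end peak. The share at 18 A or more rose with gene length, from 15.6% (12.8 to 18.8) in genes under 10 kb through 24.1% (23.6 to 24.6), 28.97% (28.4 to 29.5) and 34.7% (33.96 to 35.5) to the 40.9% of the giants. Those intervals take each peak as independent and leave out the spread between genes, so their separation is no test of a trend. Without RBFOX1 the share of the giants was 39.4% (37.1 to 41.7). The hexamer share rose from 41.7% (37.7 to 45.8) under 10 kb through 55.55% (54.9 to 56.2) to 59.4% (58.8 to 59.95) from 100 to 300 kb, and was 59.4% from 300 kb to 1 Mb and 58.0% in the giants.

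The share also differed between giants. Over the 33 giants with at least 20 intronic peaks it ran from 14.6% in PTPRN2 and 20.3% in GRIK2 to 62.5% in EYS and 62.7% in WWOX. In RBFOX1, 108 of 201 intronic peaks, or 53.7% (46.8 to 60.5), were of this class, against 29.9% (22.8 to 38.1) in RBMS3 and 30.1% (23.8 to 37.3) in GPC6. With these peaks left out, giants with an end peak had 21.1 intronic peaks per Mb (19.9 to 22.3) and those without 6.73 (5.90 to 7.64), and a hexamer preceded 68.2% (65.5 to 70.9) of the remaining peaks in the former. How many of the A-rich peaks arose by priming on the genome-encoded run was not tested.

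**Figure D5:**
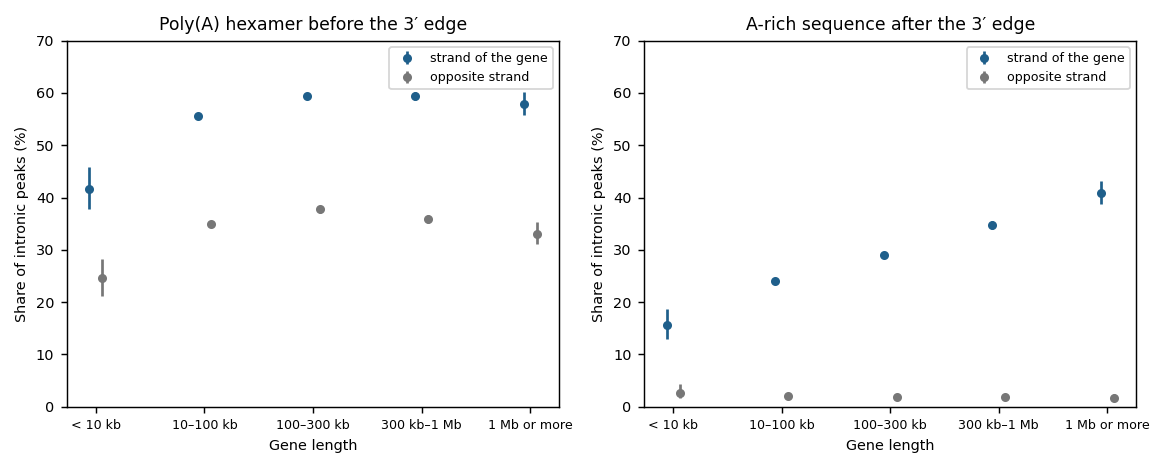
Share of intronic peaks (y axis, %) with a polyadenylation hexamer before the 3′ edge (left) or A-rich sequence after it (right), by gene length, in genes with a transcript-end peak. A-rich means at least 18 A in 25 bases, a looser rule than the study's own. Blue is the strand of the gene and grey the opposite strand, and bars are 95% Wilson intervals. On the right the blue points rise from 15.6% to 40.9%, while the grey ones stay at 2.6% or less.

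Pooled rates also fell with length among genes with an end peak. There were 143 intronic peaks per Mb (132 to 156) in genes under 10 kb, 120 (119 to 121) from 10 to 100 kb, 89.8 (88.7 to 90.9) from 100 to 300 kb, 62.4 (61.4 to 63.4) from 300 kb to 1 Mb and 35.6 in the giants. The gene medians of these classes, in the same order, were 0.0, 118.6, 90.15, 56.01 and 27.33 per Mb. By gene median the shortest class was therefore the lowest, and the fall held from 10 kb on. The interval of GPC6 lay above the pooled rate of genes from 10 to 100 kb, and that of RBMS3 includes it. Within the giants, length and rate were nearly unrelated (Spearman's rho −0.11 across 71 genes), and the rate was higher in genes with a taller end peak (rho 0.54 across 42 genes). Genes are not replicates, all values come from the same merged reads, and both measures rise with the reads a gene has.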

How the data were processed

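The study made QuantSeq 3′ REV libraries from IMR-32 cells (6 libraries, 3 groups of 2). Per its methods and the submitters' processing notes, the authors mapped reads with STAR 2.5.1b to GRCh38, merged the libraries and called peaks once with MACS2 2.1.1, without a control. The merged libraries are taken to be these 6. The deposited list gives each peak's fold enrichment (a linear ratio over local background), the −log10 p-value and −log10 q-value, and the summit offset. The deposited score was not used, and no library's depth is known. Reads at the summit were solved from the deposited fold and −log10 p, with a largest misfit of 0.000172 on the −log10 scale. Class assignment and this step were tested on simulated data.

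Annotation was Gencode release 44, with the longest model per symbol. A peak in several giants was counted once, in the one with an end peak. Python 3.11.15, numpy 2.4.6, pandas 2.3.3, scipy 1.17.1 and pysam 0.24.0 were used. No test between groups could be run on pooled peaks. Role lists were drawn up from general knowledge, and the members and lists were chosen with earlier results of these data known. Single values of 3 giants are not reported here, though pooled values include them. Otherwise named were every giant with an end peak, and with values the 8 with the tallest end peak, the 6 with the most intronic peaks, the 4 with the highest rate, the 4 without an end peak with the most, the 3 with the fewest peaks, the longest and DMD. Other genes given as examples were chosen after their values were seen. Alternatives were other cutoffs, windows, length limits and class rules.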

Additional observations from a re-analysis of the deposited data

How the results depend on the processing

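Each result is given for giants with, then without, a transcript-end peak. Without the q cutoff the rates were 59.5 and 16.9 intronic peaks per Mb and the hexamer share in giants with an end peak was 54.3%. With −log10 q of at least 20, 12 giants had an end peak, and the rates were 1.89 and 0.518. Few peaks remained at this cutoff. The first-10% share without an end peak was 28.2% (16.5 to 43.8). In giants with one the hexamer and A-rich shares were 85.2% (67.5 to 94.1) and 25.9% (13.2 to 44.7). The intervals of the first-10% and A-rich shares include the main values. At a length of at least 1200000 bp, 26 had an end peak, the rates were 33.0 and 5.82, and in giants without one the first-10% and A-rich shares were 33.6% and 38.8%. At 900000 bp, the rate with an end peak was 38.5 and the A-rich share 38.6%. When a peak at the canonical transcript's end was required, 26 giants qualified and the rates were 46.9 and 12.9. Without A-rich peaks the rates were 21.1 and 6.73, the hexamer shares 68.2% and 61.2%, and the first-10% share with an end peak 17.4%. AATAAA alone stood before 23.7% and 20.6%, and at least 22 A followed 8.05% and 4.51%. In every pair of rates above, giants with an end peak had the higher rate. The grouping and the rates come from the same merged reads and both rise with a gene's reads, so this order is no independent support.

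The next alternatives were chosen after seeing the data. Without exactly copied peaks the rates were 32.0 and 8.46. Without RBFOX1 the rate with an end peak was 33.4. Without GPC6 the rate and first-10% share of giants without an end peak were 5.25 and 33.0%, and also without the models lacking a symbol 4.68 and 31.6%. Along the canonical transcript the first-10% share with an end peak was 17.3%. The cause of these shifts was not tested. Of 98 values computed under alternatives, the other 62 stayed within the main interval, or for the count within 1.5 times.

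No paired analysis was possible because peaks were called on merged reads, and leaving out replicates was not possible either. Strand, treatment and low transcription of giants without peaks are beyond this list.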

Other observations

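Of 14 giants on a list of genes at common fragile sites, regions that break under replication stress, 6 had a transcript-end peak, against 36 of the other 57. Their gene median was 7.34 intronic peaks per Mb, against 13.3 in the others, and both ranged from 0 upward. LSAMP, CCSER1 and WWOX, with 116, 90 and 59 intronic peaks, stood at the upper end of the fragile-site list, and CTNNA3 with 0 at the lower. The list was written from general knowledge with earlier results known, and it supports no contrast by itself.

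Past the 3′ end, within 4 kb, KAZN, ROBO1, SOX5, KCNIP4 and ZFPM2 each had 1 peak. The 6 giants with the most intronic peaks held 38.4% of all 2294, with each peak counted once.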
